A study of Mus musculus with 3 samples.

Results

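Malat1, Kantr, Rab26os and Lhx1os are 4 mouse genes that give rise to long noncoding RNAs (lncRNAs), and they are described here one probe at a time. The members were chosen by name from the platform's probe-to-gene table, keeping probes with a single gene symbol, which gave 6 probes among 16656 such probes of 15096 genes. Malat1 had 3 probes and each of the other genes had 1. Kantr and Rab26os were chosen with their ratios on these same arrays known, and so was the set as a whole, so the values of all 6 probes are a description and carry no test.

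The RNA came from CD1 mouse embryos of both sexes, pooled. Each of 3 two-colour oligonucleotide arrays compared metanephroi taken at 11.5 days post coitum (dpc), labelled as channel 2, with microdissected metanephric mesenchyme taken at 10.5 dpc, labelled as channel 1, so there were no further groups and no common reference. The labels give the dye order as red/green for the first pair of arrays, 1 and 2, and as green/red for array 3. Nothing in the labels says whether the arrays came from separate dissections, so SDs and p-values measure only the spread between arrays, which may be technical. The values were log2 ratios of the 2 channels, and the labels do not say which channel was divided by which. On a single array a log2 ratio of 1 is therefore a factor of 2 between the tissues. No tissue is assigned to the positive or the negative side. Nor do the labels say whether array 3 had been turned to match arrays 1 and 2. If it had not, one sign on all 3 arrays would stand for opposite directions between the tissues. The means and factors below take array 3 as deposited, and means with it turned are given at the end.

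Across 19660 gene probes with a value on every array the array medians were 0.05, 0.05 and -0.06, and the Spearman correlation between arrays, across probes that are not independent replicates, was 0.47 for arrays 1 and 2, 0.21 for arrays 1 and 3 and 0.17 for arrays 2 and 3. By limma 0 probes, or 0%, passed an adjusted p of 0.05, and 3432, or 17.5%, had an unadjusted p under 0.05. Ratios hold no levels, so whether markers of kidney mesenchyme were present could not be checked. All 3 muscle, all 3 liver and yolk sac and all 3 endothelial marker probes were negative on every array, against 21.3% of all probes. Of 5 ureteric bud probes 4 were positive and 1, Ret, was negative on every array, and of 8 mesenchyme probes 2 were positive and 1, Osr1, was negative, where 22.4% of all probes were positive. The neuronal genes lay on both sides, with Dcx positive and Tubb3 negative on every array, and the 3 erythroid probes each changed sign between arrays. What part tissue makeup has in the ratios below was not tested. In whole tissue, fewer cells of a type and less RNA per cell cannot be told apart.

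Long noncoding RNAs are transcribed and often spliced like messenger RNAs but are not known to be translated. Malat1 makes a very abundant RNA that stays in the nucleus and gathers at nuclear speckles, bodies rich in splicing factors, and its neighbour Neat1 makes the RNA around which paraspeckles are built. Kantr is named for lying next to Kdm5c, an X-linked gene for a histone demethylase. Rab26os and Lhx1os are named as transcripts of the opposite strand of Rab26, a gene for a small GTPase of vesicle traffic, and of Lhx1, a gene for a LIM homeodomain transcription factor needed for the embryonic kidney.

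The start regions of the 4 genes, from 250 bases before to 50 after the annotated start, are shown because a probe of each lay on the positive side on every array, and Lhx1os shares its region with a kidney regulator. They are RefSeq sequences of GRCm38.p6, 5′ to 3′ on each gene's own strand, at chr19:5802623-5802922 on the minus strand for Malat1, chrX:152327444-152327743 on the minus strand for Kantr, chr17:24528001-24528300 on the plus strand for Rab26os and chr11:84525410-84525709 on the plus strand for Lhx1os. Capitals mark CCAAT or its reverse complement ATTGG.
Malat1: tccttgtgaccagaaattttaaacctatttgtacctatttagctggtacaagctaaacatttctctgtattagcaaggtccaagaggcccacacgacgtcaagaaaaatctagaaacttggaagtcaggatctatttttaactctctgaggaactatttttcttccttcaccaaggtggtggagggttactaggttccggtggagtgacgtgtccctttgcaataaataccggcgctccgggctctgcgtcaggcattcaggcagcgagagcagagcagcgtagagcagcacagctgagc
Kantr: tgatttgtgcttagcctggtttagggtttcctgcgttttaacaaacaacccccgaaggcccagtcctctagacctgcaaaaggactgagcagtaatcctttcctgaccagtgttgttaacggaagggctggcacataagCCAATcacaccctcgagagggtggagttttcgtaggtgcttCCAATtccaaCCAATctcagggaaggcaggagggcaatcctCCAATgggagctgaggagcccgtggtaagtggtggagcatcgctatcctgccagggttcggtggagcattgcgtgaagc
Rab26os: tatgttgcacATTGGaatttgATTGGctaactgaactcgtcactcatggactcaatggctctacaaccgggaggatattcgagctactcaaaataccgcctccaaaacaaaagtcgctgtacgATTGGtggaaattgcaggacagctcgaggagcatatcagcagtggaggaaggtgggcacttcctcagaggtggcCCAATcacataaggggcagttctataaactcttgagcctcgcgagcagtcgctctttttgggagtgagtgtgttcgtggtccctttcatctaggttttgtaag
Lhx1os: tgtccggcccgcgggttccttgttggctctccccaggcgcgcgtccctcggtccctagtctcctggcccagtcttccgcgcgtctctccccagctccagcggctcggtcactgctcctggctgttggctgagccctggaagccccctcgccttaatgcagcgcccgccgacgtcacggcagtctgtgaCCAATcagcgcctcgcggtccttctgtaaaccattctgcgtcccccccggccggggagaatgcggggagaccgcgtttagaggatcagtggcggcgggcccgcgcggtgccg

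The letters CCAAT, searched on both strands, occurred 4 times in the Kantr window and 4 times in the Rab26os window. All 4 lay on the gene's own strand at Kantr, and 1 of 4 did at Rab26os. Lhx1os had 1 and Malat1 had 0. Of 32851 windows of this length in the table, 37.4% held at least 1 and 1.06% held 4 or more, and among the 11588 windows of lncRNA genes these shares were 36.0% and 0.716%. TATAAA, on both strands, occurred once at Rab26os, in 13.6% of all windows, and at none of the other members. TGACGT, on both strands, occurred 2 times at Malat1 and 1 time at Lhx1os, and in 7.51% of all windows. The Lhx1os window was the richest of the 4 in CpG, with 33 CpG and 69.3% G and C, against medians of 7 and 52.7% over all windows. Of its 300 bases, 225 were shared, read on the other strand, with the start window of Lhx1, so that both genes start within one short stretch, and its CCAAT lay in the shared part. These motifs were picked with the sequences in view, and a match is a description of letters, not of a bound site.

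One Malat1 probe, designed on the sequence AK020483, lay far to the positive side. It had log2 ratios of 2.82 on array 1, 3.23 on array 2 and 2.56 on array 3, a mean of 2.87 ± 0.34 (SD, n = 3) or a factor of 7.31. Every array was on the same side and the lowest was the array of the other dye order. Its mean was number 6 from the top among the 19660 probes. On single arrays it was number 38, 24 and 368, the last on array 3, whose positive tail was longer and whose negative tail was shorter. The 1% and 99% quantiles were -3.88 and 1.96 on array 1, -3.90 and 2.26 on array 2, and -2.03 and 3.50 on array 3.

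The other Malat1 probes did not repeat that value. The probe designed on AF357487 had 0.04, -0.14 and 0.04, a mean of -0.02 ± 0.11 (SD, n = 3), with arrays on both sides of 0. The probe designed on BC004722 had 2.65 on array 1 and 0.42 on array 3 and no value on array 2, so its mean of 1.53 ± 1.57 (SD, n = 2) rests on arrays that lay 2.22 apart. The high and the flat probe differed by 2.78, 3.37 and 2.52 on the arrays, a mean difference of 2.89 ± 0.44 (SD, n = 3), a gap several times the spread of either probe. On array 1 the BC004722 probe stood with the high probe, 0.18 below it, and on array 3 with the flat probe, 0.38 above it.

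Disagreement of this size between probes of a gene was uncommon. Of 916 genes with at least 2 probes measured on every array, 5 had a wider range of probe means than the 2.89 of Malat1, and the median range was 0.57. Among the 15 lncRNA genes in that set the median range was 0.51. Probe means of opposite sign were found in 493 of the 916 genes. Malat1 counts among them only through its flat probe, whose mean of -0.02 was near 0. Where along the RNA each probe lies was not analysed here. Averaging the Malat1 probes with a value, which were 3 on arrays 1 and 3 and 2 on array 2, gave 1.84, 1.54 and 1.01, a mean of 1.46 ± 0.42 (SD, n = 3), a value between the high and the flat probe on each array.

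**Figure D1:**
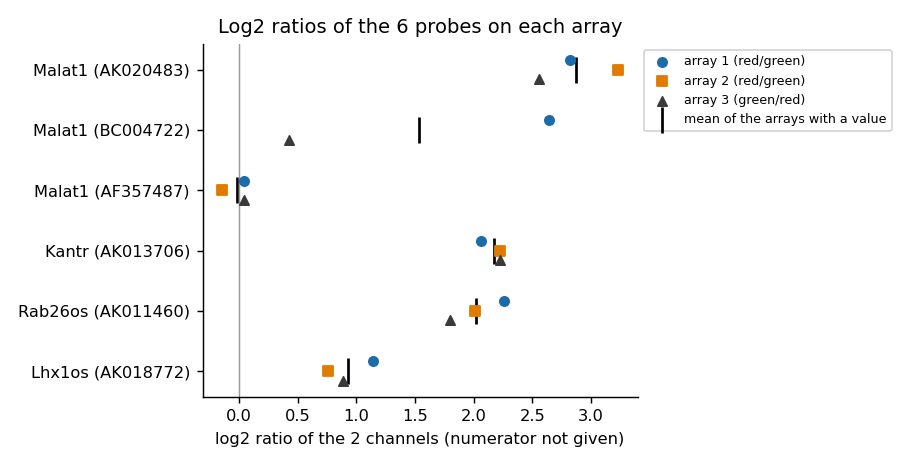
Log2 ratio (x axis) of each of the 6 probes (rows, with the sequence each was designed on) on arrays 1 to 3 (points) and the mean over arrays with a value (vertical bar). The high Malat1 probe lies between 2.56 and 3.23 and the flat one between -0.14 and 0.04, while the single probes of Kantr, Rab26os and Lhx1os keep to the positive side.

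Kantr, measured by a probe designed on AK013706, was the most even of the strongly positive members. Its log2 ratios were 2.06, 2.23 and 2.23, a mean of 2.17 ± 0.10 (SD, n = 3) or a factor of 4.51. All arrays lay within 0.17 of each other across both dye orders, and 7.18% of all probes had a smaller SD. Its mean was number 43 from the top of 19660 probes. Kantr was picked in earlier results of these data by a rule that favours a small spread, so the spread is no separate sign of precision.

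Rab26os, by a probe designed on AK011460, had 2.26, 2.01 and 1.80, a mean of 2.02 ± 0.23 (SD, n = 3) or a factor of 4.06. All arrays were positive, array 3 was the lowest and the mean ranked number 63. Lhx1os, by a probe designed on AK018772, had 1.14, 0.76 and 0.88, a mean of 0.93 ± 0.19 (SD, n = 3) or a factor of 1.90. It lay below the other positive members on every array on which they had values, except that the BC004722 probe of Malat1 was lower on array 3. Its mean ranked number 972, so 95.1% of probes had a lower mean.

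In order of mean among the 5 probes with 3 values, the high Malat1 probe at 2.87 came first, then Kantr at 2.17 and Rab26os at 2.02. Lhx1os at 0.93 and the flat Malat1 probe at -0.02 followed. Kantr and Rab26os overlapped across arrays and did not differ beyond their spread, and the other neighbours in this order did not overlap. The BC004722 probe of Malat1, with 2 values, had a mean of 1.53, between Rab26os and Lhx1os. Its values of 0.42 and 2.65 lay below and above all those of Kantr, Rab26os and Lhx1os. A log2 ratio of at least 1 on every array was found for 3 of the 6 probes, where 0.89% of all probes had one on the positive side. A positive ratio on every array was found for 4 of the 5 probes with 3 values, against 22.4% of all probes. Since the members were chosen on this contrast, nothing is read from these counts. No member probe had a log2 ratio of -1 or lower on every array, as 0.768% of all probes did.

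Most lncRNA probes that were high on arrays 1 and 2 were not high on array 3. Array 3 was the only array of its dye order, so dye order and array cannot be told apart. Of 1113 other lncRNA probes with 3 values, 116 had a mean of at least 1 over arrays 1 and 2, and 19 of these also reached 1 on array 3, while 61 were negative there. That is 16.4% of these lncRNA probes, against 21.8% of all probes that reached 1 on arrays 1 and 2. Array 3 minus the mean of arrays 1 and 2 was 0.08 for Kantr, -0.07 for Lhx1os, 0.09 for the flat Malat1 probe, -0.34 for Rab26os and -0.47 for the high Malat1 probe. For the BC004722 probe of Malat1, array 3 minus array 1 was -2.22. By the lowest of its 3 ratios, the high Malat1 probe was number 1 among 1118 lncRNA probes and Kantr was number 2. 1600027J07Rik was number 3 and Rab26os was number 4, with Lhx1os at number 31. The members were chosen with these ratios known, so their ranks and their differences between array 3 and the other arrays are a description.

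**Figure D2:**
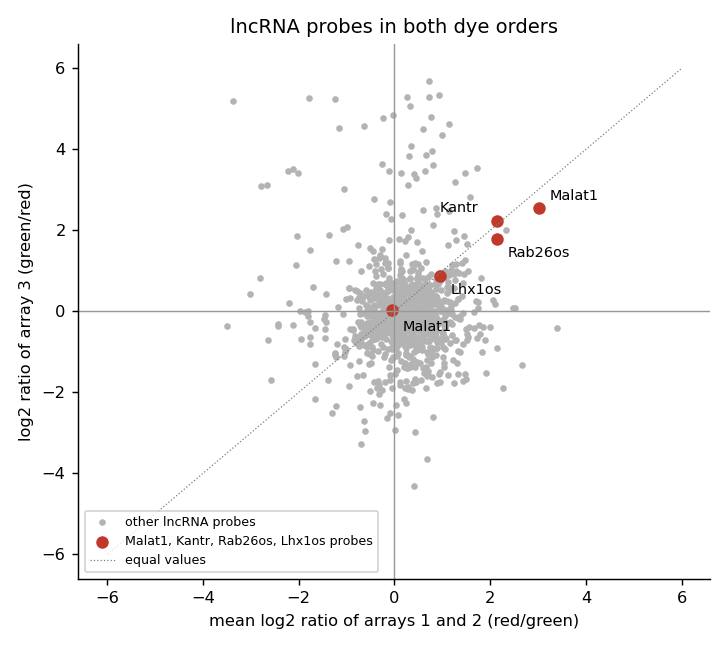
Each point is an lncRNA probe with 3 values, with its mean log2 ratio on arrays 1 and 2 (red/green) on the x axis and its log2 ratio on array 3 (green/red) on the y axis, and the dotted line marks equal values. The 5 probes of Malat1, Kantr, Rab26os and Lhx1os in red lie near that line, but were chosen with their ratios known. Many grey probes are high on arrays 1 and 2 only or on array 3 only.

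The wider class of lncRNAs leaned to the positive side on arrays 1 and 2 only. The other lncRNA probes had a median of 0.12, with medians of 0.24 on array 1, 0.19 on array 2 and -0.10 on array 3, against 0.0040 for the mean over all gene probes and -0.01 for protein coding probes. Their median SD over arrays was 0.50, against 0.33 for protein coding probes. By limma 0 of the 1113 passed an adjusted p of 0.05, and 102 positive and 59 negative ones, together 14.5%, had an unadjusted p under 0.05, a share below the 17.5% of all probes.

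Among lncRNAs of known name, 19 of the 40 listed genes had values, on 21 probes. Their median was 0.29, 11 probes were positive and 3 negative on every array (22.4% and 21.3% of all probes were), and limma called 0 at an adjusted p of 0.05. At an unadjusted p under 0.05 there were 6 positive and 2 negative probes, together 38.1%, against 17.5% of all probes. The names were listed with earlier results of these data known, so nothing is read from these shares. Zfas1, a host gene of small nucleolar RNAs, had 1.01, 1.09 and 0.96 and an adjusted p of 0.193 by limma. Mir17hg, the host gene of the miR-17 cluster, had 0.63, 0.97 and 2.14 and an adjusted p of 0.246. Both were positive on every array, and Mir17hg was highest on array 3.

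Tug1 was even at 0.39, 0.35 and 0.44, and Epb41l4aos was even at 0.60, 0.55 and 0.65. On the negative side, Rian of the imprinted Dlk1 region had -1.51, -1.09 and -2.51, and the imprinted H19 had -0.83, -1.66 and -1.04, each with an adjusted p of 0.210 by limma. Meg3, of the same region as Rian, had probe means of 0.34, -0.0031 and -0.18, with arrays on both sides of 0 for each probe. The spread of its 3 probes was thus narrow beside that of Malat1, whose 3 probes ran from -0.02 to 2.87.

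**Figure D3:**
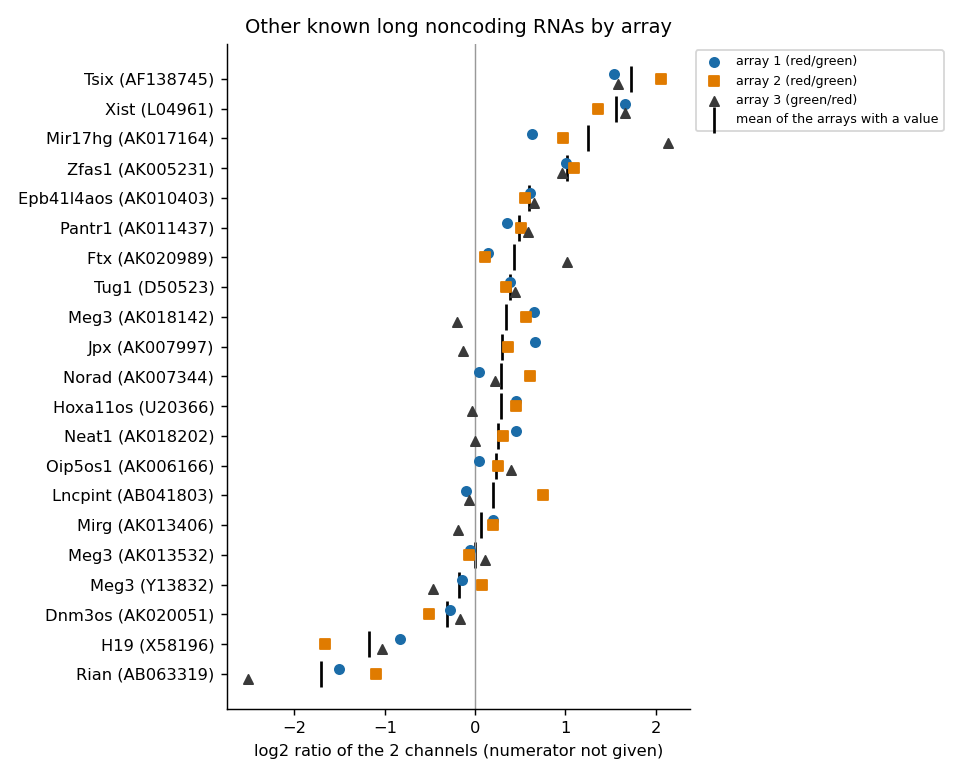
Log2 ratio (x axis) of 21 probes of other known lncRNAs (rows) on arrays 1 to 3 (points), with the mean as a vertical bar. Tsix and Xist lie highest at means of 1.73 and 1.56, and Rian lowest at -1.71.

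Kantr is X-linked, and so are Xist, the RNA that coats the inactive X chromosome, and its antisense partner Tsix. Xist had 1.66, 1.36 and 1.66 and Tsix had 1.54, 2.06 and 1.58, both positive on every array and each with an adjusted p of 0.193 by limma. The X-linked lncRNAs Jpx at 0.66, 0.37 and -0.14 and Ftx at 0.15, 0.11 and 1.02 were lower and less even. Of the Y-linked genes, Uty had a mean of 0.62 ± 0.48, Eif2s3y of 0.04 ± 0.42 and Kdm5d of -0.79 ± 0.55 (SD, n = 3 each), so they lay on both sides of 0. The tissues were pools of both sexes, and the part of sex in the Kantr ratio was not tested.

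The measured protein coding genes nearest Kantr varied in sign between arrays. Kdm5c had -0.48, -0.07 and 0.14, on both sides of 0, a mean of -0.14 ± 0.32 (SD, n = 3) and an adjusted p of 0.738 by limma. Tspyl2, the next measured gene on the other side, had 0.44, 1.34 and -0.76, and the cohesin subunit gene Smc1a had 0.44, 0.04 and -0.24. Gpr173, a receptor gene beyond Tspyl2, had -0.65, -2.70 and 0.96, and on array 2 it lay further from 0 than Kantr. All 4 changed sign between arrays, whereas Kantr stood above 2 on every array.

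Beside Malat1, the nearest measured gene on one side was Ltbp3, for a protein that binds latent TGF-beta, with 1.47, 1.26 and 1.20, a mean of 1.31 ± 0.14 (SD, n = 3) and an adjusted p of 0.193 by limma. It was positive on every array. On the other side Neat1 had 0.46, 0.31 and 0.00, a mean of 0.26 ± 0.23 (SD, n = 3) and an adjusted p of 0.498, and Frmd8 beyond it had 0.41, 0.98 and 0.72. Neat1 thus lay nearer the flat Malat1 probe than the high one on every array.

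For proteins of nuclear speckles and paraspeckles 11 genes were measured, on 16 probes, with a median of -0.11. On every array 3 probes (18.75%) were positive and 5 (31.25%) negative, against 22.4% and 21.3% of all probes. By limma none passed the adjusted threshold of 0.05, and 2, or 12.5%, had an unadjusted p under 0.05, against 17.5% of all probes. These were a probe of Srsf1, a splicing factor gene, at 1.26, 1.26 and 0.88, and a probe of Sfpq, a paraspeckle protein gene, at -0.73, -0.45 and -0.91. Other probes of the same genes differed, with means of 0.05 and -0.14 for Srsf1 and 1.07 for Sfpq.

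For Lhx1os the partner was measured once. Lhx1os had 1.14 on array 1, where Lhx1 had -2.05, and Lhx1 had no value on arrays 2 and 3, so on that array the pair lay on opposite sides of 0, 3.19 apart. With 1 array there is no replicate check of that difference. Rab26 was looked for as the partner of Rab26os, but no probe carried it as its single gene symbol. Beside Rab26os, Traf7 had -0.73, -0.66 and -0.94, all negative, with an adjusted p of 0.210 by limma, and Pkd1, the polycystic kidney disease gene, had 0.09, 0.43 and 0.28.

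Taking the 3 nearest measured genes on each side of each member in RefSeq order, 24 probes had 3 values. Of these 13 had a positive mean and 11 a negative one, with a median of 0.03, where 50.3% of all probes had a positive mean. A log2 size of at least 1 on every array was found for 1 of the 24, Ltbp3. Of all probes 0.89% reached it on the positive and 0.768% on the negative side. By limma 0 passed an adjusted p of 0.05 and 3 had an unadjusted p under 0.05, Ltbp3, Frmd8 and Traf7. The count of 3 in 24 stands beside 17.5% of all probes.

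**Figure D4:**
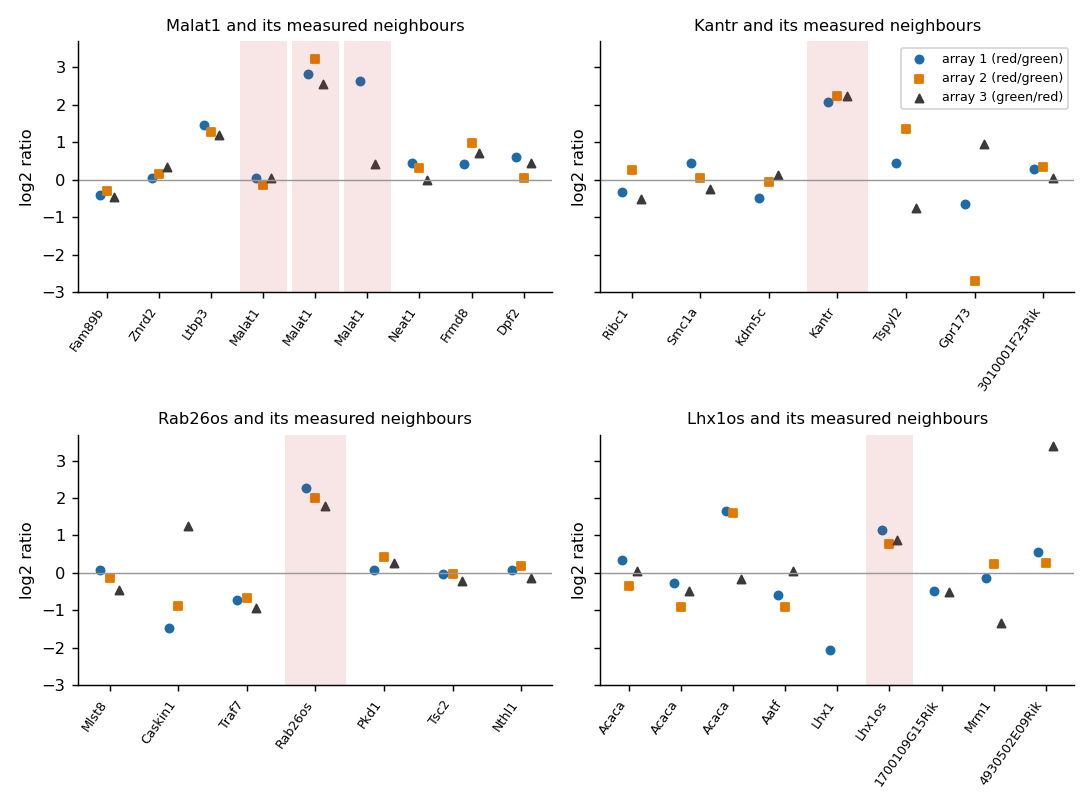
Log2 ratio (y axis) on arrays 1 to 3 of the members (shaded, the 3 Malat1 probes in the order AF357487, AK020483, BC004722) and of the 3 nearest measured genes on each side in RefSeq order, with equal spacing along the x axis. Kantr and Rab26os stand above their neighbours on every array. Lhx1os does not, with a probe of Acaca above it on arrays 1 and 2 and 4930502E09Rik above it on array 3. Lhx1 has a single point at -2.05 on array 1.

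Antisense genes of the same naming type numbered 70 other probes of 68 genes. Their median was 0.24, with medians of 0.35, 0.32 and -0.07 on the arrays, and 27.1% were positive and 14.3% negative on every array, against 22.4% and 21.3% of all probes. By limma 0 passed an adjusted p of 0.05, and 7 positive and 4 negative ones, together 15.7%, had an unadjusted p under 0.05, which is near the 17.5% of all probes. None of the 70 reached 1 on every array, where 0.89% of all probes did. Rab26os reached it, but was chosen with its ratios known. The highest means of one sign were those of Kcnmb4os1 at 1.46 ± 1.61 and Smc2os at 1.22 ± 1.04, with SDs close to or above the means. The lowest were Stamos at -0.80 ± 0.30 and Ccdc34os at -0.77 ± 0.37 (SD, n = 3 each). By its lowest array, Rab26os was number 1 and Lhx1os number 2 of 72 antisense probes. Both belong to a set chosen with its ratios known, so these ranks are a description.

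Whether an antisense gene and its sense partner leaned the same way could be seen for 44 antisense genes whose partner had values on every array, a set that holds neither Lhx1os nor Rab26os. The mean ratios had the same sign in 23 and opposite signs in 21. Across the 44 genes the Spearman correlation was -0.26 and the Pearson correlation -0.19, a description over genes that share the same 3 arrays. Of the 17 antisense genes with a mean of at least 0.5 in size, 9 had the sign of the partner. Sox6os had 0.96, 0.92 and 0.07 and Sox6 had -0.38, -1.20 and -0.22, so this pair lay on opposite sides on every array. Epb41l4aos was even, as given above, while Epb41l4a had 0.08, -2.56 and -0.35, so its negative mean rests mostly on array 2.

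**Figure D5:**
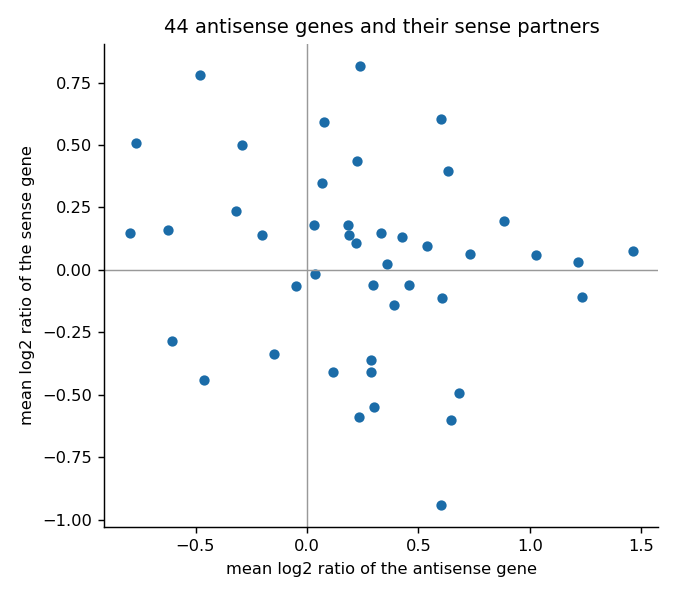
Mean log2 ratio over 3 arrays of 44 antisense genes (x axis) and of their sense partners (y axis), 1 point a gene. Points fall in all 4 quadrants, with 23 genes of the same sign as the partner and 21 of the opposite sign.

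Likeness of pattern was measured as the Euclidean distance between the 3 log2 ratios of a member probe and those of each single-symbol probe of another gene. Nearest to the high Malat1 probe were Syt6 at a distance of 0.58, with 2.78, 3.80 and 2.48, then Zfp553 at 0.85 and Rbfox1, a splicing factor gene, at 0.91. No probe lay within 0.5 of it. Nearest to Kantr were 1600027J07Rik at 0.34, Ak5 at 0.38 and Lcn5 at 0.42, with 6 probes within 0.5. Nearest to Rab26os were Crym, a thyroid hormone binding protein gene, at 0.32, Mgp at 0.34 and 1600027J07Rik at 0.51, with 2 probes within 0.5.

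Kantr and Rab26os lay 0.52 from each other, and Kantr lay 1.30 from the high Malat1 probe. Lhx1os sat in a denser part of the data, with 254 probes within 0.5 and Lama2, Il1b and Sarnp nearest at 0.066, 0.105 and 0.113. The flat Malat1 probe sat in the bulk, with 2929 probes within 0.5 and Kdm3a, D10Wsu102e and Ddost nearest.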

How the data were processed

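The table deposited by the authors holds a log2 ratio per probe and array. Per the labels, spots were quantified with Imagene 5.5, followed by print-tip lowess and a between-array step in R. The labels add that each lowess point used 20% of the data and that a control channel below 10 was raised to 10. The numerator and the genome build are not given in the sources used here. Array 3, of the other dye order, was used as deposited, since its ratios correlated above 0 with arrays 1 and 2 (Spearman 0.21 and 0.17, Pearson 0.05 and 0.01). Probes with large ratios such as Acta1 (-4.50, -6.02 and -4.37) and Wt1 (1.78, 1.70 and 1.76) had one sign in both dye orders. The labels do not say whether array 3 had been turned, and these values cannot decide it. A gene-specific dye effect on an array that had not been turned would also give one sign. Intensities were not used here, so signal over background is unknown, and precision is limited by having 3 arrays.

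Of 22702 rows, 21819 were gene probes and 19660 of these had 3 values. Symbols came from the platform annotation, whose Entrez identifiers matched RefSeq genes (GRCm38.p6) for 15970 of 16656 single-symbol probes, and RefSeq gave the gene type and the order of genes. The 3 arrays were 1 group. For all 19660 probes limma 3.58.1 (lmFit, then eBayes, in R 4.3.3) tested whether the mean ratio differed from 0, two-sided, with Benjamini-Hochberg adjustment, after a check of the script on simulated data. Tables and plots were made with Python 3.11.15, pandas 2.3.3 and matplotlib 3.10.9.

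The members, gene lists and tests were chosen with earlier results of these data known. Named genes were the members, listed partner genes and lncRNAs, the 3 nearest probes by distance, and the 2 highest and 2 lowest antisense genes of one sign. Neighbours, sense partners, X- and Y-linked genes and promoter motifs were added after their values were seen. Alternatives were each array left out, array 3 turned, median centring, scaling, a dye term, values on at least 2 arrays, unmoderated variances and averaged probes.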

Additional observations from a re-analysis of the deposited data

How the results depend on the processing

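Of 44 alternative values of the member probes, 38 moved by less than 1 SD over arrays, 6 moved further and 0 of the means larger than their SD changed sign. Leaving an array out or adding a dye term cannot move a mean of 2 or 3 arrays by 1 SD, so those alternatives could not count as moved. For the BC004722 probe of Malat1, 0.42 without array 1 and 2.65 without array 3 both lay within 1 SD of its mean of 1.53. The flat Malat1 probe, near 0, had 0.040 without array 2. With array 3 turned the other way the mean was 1.16 for the AK020483 probe of Malat1, 0.69 for Kantr, 0.82 for Rab26os and 0.34 for Lhx1os, because a positive array then counts as negative. Averaging the Malat1 probes gave 1.46 in place of 2.87 and -0.02. The count of probes past an adjusted p of 0.05 by limma was 0 under every alternative run. At an unadjusted p under 0.05 it was 3432, against 1158 with array 3 turned. With an array left out, tested over probes with values on both others, it ran from 1372 (array 1 left out) through 1540 (array 2) to 3678 (array 3). Of other lncRNA probes 161 had an unadjusted p under 0.05, against 106 with array 3 turned, and 82 without array 1, 73 without array 2 and 216 without array 3. A log2 size of at least 1 with one sign on every array was found for 326 probes, against 177 with array 3 turned, and 659, 646 and 1083 without arrays 1, 2 and 3, where fewer arrays had to reach it. Every array holds both tissues, so the test of the log2 ratio against 0 pairs them within each array. The arrays form 1 group, with no further pairing. Arrays 1 and 2 share a dye order, so the value without array 3 holds no dye swap.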
